A study of Homo sapiens with 6 samples.

Results

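The genes described here are 10 genes of the NRF2 oxidative stress response: NFE2L2, which encodes NRF2 itself, its inhibitor KEAP1, the target genes NQO1, HMOX1, GCLM, GCLC, TXNRD1 and SRXN1, and the aldo-keto reductases AKR1C1 and AKR1B10. They were taken by symbol through their Ensembl identifiers, and all 10 were found among the 61487 gene IDs of the count table. RNA was sequenced from H2170, a human line derived from a squamous carcinoma of the lung. All 3 groups carried GFP: by itself in Control, joined to wild-type ACK1 in WT, and joined to ACK1 bearing a change named IDRmut in the group of that name. Each group had 2 libraries. The design text sets the comparison as one of gene regulation by ACK1 condensates. The altered residues are not listed, IDR is read here as intrinsically disordered region, and the labels give neither the promoter of the constructs, nor the time after their introduction, nor whether each line is 1 clone. Whether the replicates were separate cultures is not stated, and the p-values thus reflect only library-to-library spread, which may be technical.

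NRF2 is a leucine zipper transcription factor that is kept scarce by KEAP1, an adaptor that brings it to the CUL3 ubiquitin ligase. Oxidants and electrophiles modify KEAP1, NRF2 then accumulates, pairs with a small MAF protein and binds antioxidant response elements, at which the heme-sensing repressor BACH1 competes with it. The pathway is known for mutations in NFE2L2 and KEAP1 in squamous lung cancer, and because NRF2 is controlled largely through protein stability, the transcript of NFE2L2 is not a measure of NRF2 activity.

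Promoter windows from RefSeq (GRCh38.p14), covering the 250 bases upstream of a transcription start, were matched for 8 of the 10 members, all but HMOX1 and AKR1B10. They were searched on both strands for the core of the antioxidant response element, TGACNNNGC. It was found in windows of 3 members, KEAP1, GCLM and TXNRD1, against 13.2% of the 27305 genes with such windows. Bases outside these windows were not searched, so members without a match were not shown to lack the element. The stretches are shown because the 3 genes behaved differently in the counts below. The KEAP1 stretch lies at chr19:10502777-10502865 (minus strand), that of GCLM at chr1:93909431-93909504 (minus strand), and those of TXNRD1 at chr12:104215640-104215728 and chr12:104286890-104286978 (plus strand), ahead of an upstream and a downstream start. Capitals mark the matches, read along the gene.
KEAP1: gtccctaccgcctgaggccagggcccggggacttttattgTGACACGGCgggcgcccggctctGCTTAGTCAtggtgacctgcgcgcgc
GCLM: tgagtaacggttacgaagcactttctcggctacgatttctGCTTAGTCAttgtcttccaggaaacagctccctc
TXNRD1 upstream start: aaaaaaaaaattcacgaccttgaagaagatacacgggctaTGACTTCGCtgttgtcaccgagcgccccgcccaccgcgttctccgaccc
TXNRD1 downstream start: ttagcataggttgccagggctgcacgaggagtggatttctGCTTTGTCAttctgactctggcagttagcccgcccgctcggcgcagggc
The KEAP1 window held 2 matches, and the one nearer the start, 22 bases away, has the same letters as the GCLM match 25 bases from its start. A match is only an occurrence of these letters, and none of the windows was assayed for binding.

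Library totals lay between 19128111 and 33540998 counts, with the second WT library the deepest. Levels are CPM, the counts of a gene per 1000000 counts of a library whose size was scaled by TMM, given as mean ± SD with n = 2, and log2 fold changes are given ± SE. TNK2, the gene of ACK1, stood at 42.1 ± 1.41 CPM in Control, 3564 ± 69.8 in WT and 1609 ± 217 in IDRmut, and each WT to IDRmut difference below accompanied a TNK2 difference of 1.15 ± 0.06 on the log2 scale. That difference in transcript and the IDRmut change cannot be told apart. Of the squamous markers, KRT14 (1424 ± 13.9 CPM in Control), SOX2 (339 ± 16.7) and TRIM29 (278 ± 15.3) were abundant, while CDH1, EPCAM, PERP, DSC3 and PKP1 had at most 10 counts in any library.

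In WT cells, HMOX1 rose 2.95-fold over Control, NQO1 and GCLM rose by smaller amounts, and AKR1C1 fell to 0.581 of its Control level. In IDRmut cells, HMOX1 and GCLM rose, AKR1C1 and TXNRD1 fell, and NQO1 was not called. Compared directly, HMOX1, NQO1 and TXNRD1 were higher in WT than in IDRmut, and AKR1C1, GCLM and NFE2L2 were lower. The threshold for a call was an adjusted p of 0.05 in the quasi-likelihood test of edgeR, adjusted by Benjamini-Hochberg, and 9 of the 10 members had enough counts to be tested, all but AKR1B10. The calls numbered 4 of 9 in WT against Control, where 35% of all 16591 tested genes were called, 4 of 9 in IDRmut against Control, where 31.6% were, and 6 of 9 between WT and IDRmut, where 26.5% were. The median log2 fold change of the tested members was 0.07, -0.02 and 0.04 in these comparisons, and that of all tested genes lay within 0.004 of 0. The libraries of the compared groups did not overlap for 7 of 9 members in WT against Control (5 above, 2 below), as for 69.2% of all tested genes (34.6% above, 34.7% below). They did not overlap for 5 of 9 in IDRmut against Control (3 above, 2 below), beside 63.3% of all genes (32% and 31.3%), and for 7 of 9 in WT against IDRmut (4 above, 3 below), beside 61.5% (31.4% and 30.1%). Both contrasts with Control use the same Control libraries. In bulk RNA, fewer expressing cells and less RNA per cell cannot be told apart.

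**Figure D1:**
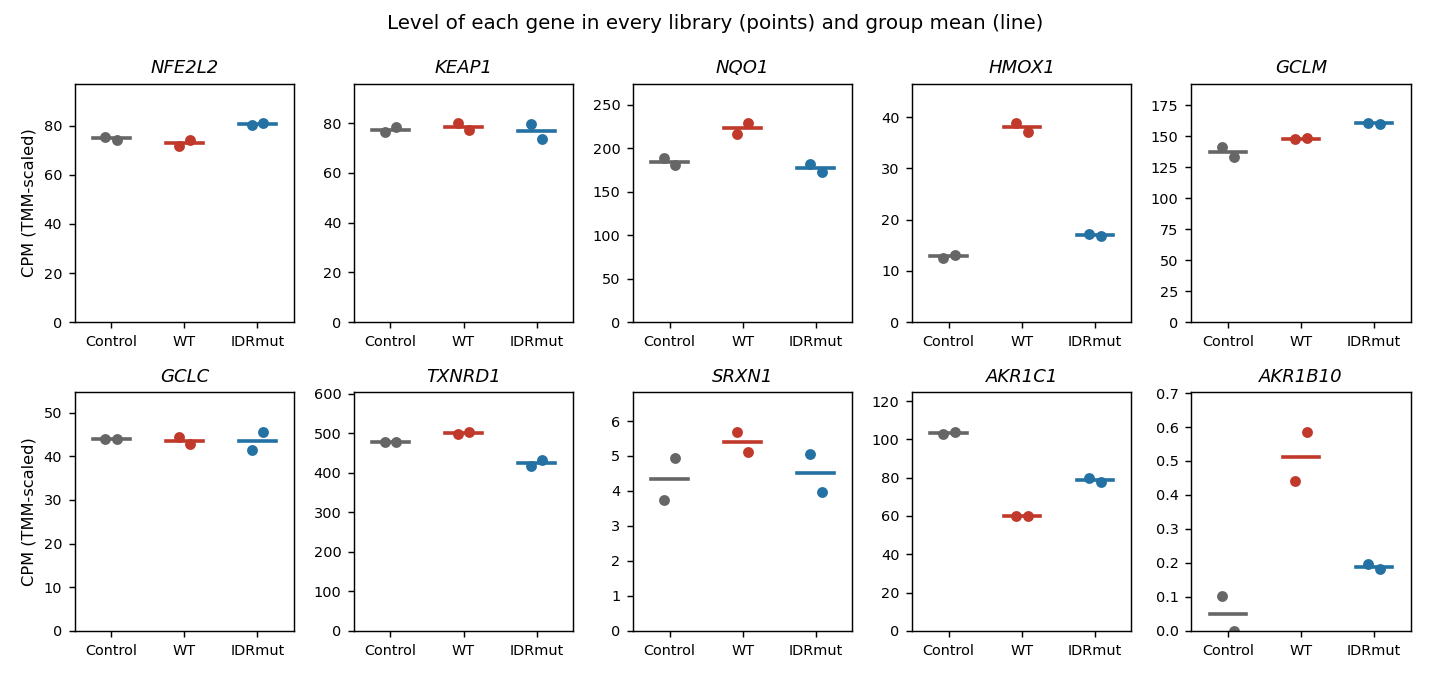
CPM of the 10 genes in the 6 libraries (points; horizontal lines are group means; each vertical axis starts at 0 and has its own scale). HMOX1 stands near 38 CPM in WT and below 18 CPM in every other library, AKR1C1 is highest in Control and lowest in WT, and AKR1B10 stays under 1 CPM throughout.

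The regulator transcripts differed little between groups. NFE2L2 (chromosome 2, 177227595 to 177392697, GRCh38) had 75.5 and 74.2 CPM in Control, 71.7 and 74.1 in WT, with 80.2 and 80.9 in IDRmut. The IDRmut libraries were the highest, and the Control and WT libraries lay side by side. Only its WT to IDRmut difference was called, at -0.14 ± 0.04 with an adjusted p of 0.026 by edgeR, and that call was lost without WT replicate 1 (0.24), without WT replicate 2 (0.092), with no filter on low counts (0.075) and with DESeq2 (0.13). With upper-quartile scaling, the IDRmut to Control difference of 0.14 was called as well (adjusted p 0.0325 by edgeR), beside 0.11 ± 0.05 (0.092) with TMM. In GENCODE release 29, 20.9% of the NFE2L2 exon bases overlap other genes, among them AGPS on the opposite strand, which had between 2963 and 6452 counts per library.

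KEAP1 (chromosome 19, 10486120 to 10503741) had 76.3 and 78.6 CPM in Control, 79.9 and 77.4 in WT, with 79.7 and 73.6 in IDRmut. The groups overlapped in all 3 comparisons. The 95% interval of its WT to Control log2 fold change ran from -0.08 to 0.13, and that of IDRmut to Control from -0.12 to 0.09.

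Among 22 tested genes of NRF2 control other than these members, 4 rose and 2 fell in WT, and 1 rose and 5 fell in IDRmut. WT against IDRmut gave 4 higher and 1 lower. Over all tested genes, 17.4% were called higher and 17.6% lower in WT, and 15.6% and 15.9% in IDRmut. In WT against IDRmut these shares were 14.2% and 12.3%. SQSTM1, which encodes the autophagy receptor p62, a protein that binds KEAP1, had the largest change of this list in WT against Control: 153 ± 1.96 CPM in Control, 264 ± 1.56 in WT and 190 ± 15.3 in IDRmut. Its WT libraries lay above all others, at 0.78 ± 0.05 over Control (adjusted p 7.8e-10 by edgeR) and 0.48 ± 0.05 over IDRmut, and 22.0% of its exon bases overlap genes on the opposite strand. Of the 3 small MAF partners, MAFF fell in both arms, by 0.38 and 0.40 on the log2 scale. MAFG rose in WT by 0.21 ± 0.05 and had -0.11 ± 0.06 in IDRmut, and MAFK rose in WT by 0.28 ± 0.08 and had 0.10 ± 0.08 in IDRmut. Neither rise was called without Control replicate 1 or without WT replicate 2, and that of MAFK was not called with DESeq2. The arms differed by 0.32 ± 0.05 for MAFG, called under every alternative run, and by 0.18 ± 0.08 for MAFK, called only without IDRmut replicate 1. DPP3, a peptidase that binds KEAP1, fell by 0.33 on the log2 scale in IDRmut and had -0.00 ± 0.07 in WT. The repressor BACH1 stood at 31.1 ± 0.411 CPM in Control, 30.8 ± 0.345 in WT and 27.3 ± 2.56 in IDRmut and was called in none of the 3 comparisons; without IDRmut replicate 2 it was called lower in IDRmut than in either other group. CUL3 was called in none of them, and without IDRmut replicate 1 it was called between WT and IDRmut.

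HMOX1 encodes heme oxygenase 1, which opens heme into biliverdin, carbon monoxide and iron, and lies on chromosome 22 (35380361 to 35394214). Control libraries held 247 and 245 reads of HMOX1 (12.5 and 13.2 CPM), WT libraries 792 and 1272 (38.8 and 37.2 CPM), and IDRmut libraries 350 and 370 (17.2 and 16.8 CPM). The 3 groups were fully separated, with IDRmut between Control and WT and nearer to Control. HMOX1 rose by 1.56 ± 0.07 in WT (adjusted p 3.5e-11 by edgeR) and by 0.40 ± 0.08 in IDRmut (adjusted p 0.0013), and the difference between the arms was 1.16 ± 0.07 (adjusted p 1.6e-09 by edgeR). The constitutive paralog HMOX2 was called in no comparison, with a level of 25.9 ± 0.516 CPM in Control and 24.3 ± 1.40 in WT, and was chosen for mention after its values were seen.

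HMOX1 is abundant in macrophages, so their markers were read beside it. None of 12 macrophage markers had enough counts to be tested, and their summed level was 0.71 and 0.753 CPM in Control, 1.47 and 1.43 in WT, with 1.28 and 1.18 in IDRmut. MARCO and TYROBP had no count in any library.

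Of 17 tested genes of heme and iron handling besides HMOX1, 4 rose and none fell in WT, 8 rose and 2 fell in IDRmut, and WT against IDRmut gave 4 higher and 3 lower. Of all tested genes, 17.4% were called higher and 17.6% lower in WT, 15.6% and 15.9% in IDRmut, and 14.2% and 12.3% in WT against IDRmut. FTL, the ferritin light chain, had 276 and 286 CPM in Control, 521 and 506 in WT, with 373 and 336 in IDRmut. Against Control it rose by 0.87 ± 0.04 (WT) and 0.34 ± 0.04 (IDRmut), and the arms differed by 0.54 ± 0.04 (adjusted p 8.4e-08 by edgeR). FTH1, the ferritin heavy chain, rose by 0.59 ± 0.05 in WT and had 0.07 ± 0.05 in IDRmut, where it was called only without IDRmut replicate 2, and the arms differed by 0.52 ± 0.05. BEST1 on the opposite strand overlaps 62.4% of the FTH1 exon bases, and ferritin genes have many processed pseudogenes, so reads could be split. STEAP3, a ferric reductase, rose by nearly equal amounts in WT (1.02 ± 0.11) and IDRmut (1.12 ± 0.11). SLC48A1, a heme transporter, fell by 0.64 on the log2 scale in IDRmut and stood at -0.06 ± 0.05 in WT, where it was not called.

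NQO1 encodes a quinone reductase that is widely used as a readout of NRF2, and lies on chromosome 16 (69706996 to 69726951). It had 189 and 181 CPM in Control, 217 and 229 in WT, with 182 and 172 in IDRmut. WT stood above the other groups, which overlapped each other. The rise in WT was 0.27 ± 0.04 (adjusted p 7.4e-05 by edgeR), IDRmut had -0.06 ± 0.04 (adjusted p 0.29), and the arms differed by 0.34 ± 0.04 (adjusted p 1.3e-05 by edgeR).

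Of 17 other tested genes of quinone, carbonyl and conjugating metabolism, 6 rose and 5 fell in WT, and 5 rose and 3 fell in IDRmut. WT against IDRmut gave 3 higher and 3 lower. Over all tested genes, 35%, 31.6% and 26.5% were called in either direction in these comparisons. DHRS2, a dicarbonyl reductase, rose from 108 ± 0.271 CPM to 432 ± 0.105 in WT and 341 ± 4.96 in IDRmut. The carboxylesterase CES1 fell from a Control level of 162 ± 4.16 CPM, by 2.01 on the log2 scale in WT and by 1.87 in IDRmut. Aldehyde dehydrogenases separated the arms: ALDH3A1 fell in WT by 1.22 on the log2 scale and was at -0.12 ± 0.06 in IDRmut, with a difference of -1.11 ± 0.07 (adjusted p 2.3e-09 by edgeR), and ALDH3A2 differed by -0.56 ± 0.04. The IDRmut values of ALDH3A1 and ALDH3A2 against Control were called lower without IDRmut replicate 1 and without IDRmut replicate 2, respectively.

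GCLM and GCLC encode the modifier and catalytic subunits of glutamate-cysteine ligase, which makes the first intermediate of glutathione. GCLM (chromosome 1, 93885205 to 93909456) had 141 and 134 CPM in Control, 148 and 148 in WT, with 161 and 160 in IDRmut. IDRmut was the highest, WT lay between, and the groups did not overlap. The rise in IDRmut was 0.22 ± 0.04 (adjusted p 4.4e-04 by edgeR). The rise in WT, 0.11 ± 0.04 (adjusted p 0.044 by edgeR), was not called without either Control replicate, without either WT replicate, with a replicate block, with no filter or with DESeq2, with adjusted p from 0.052 to 0.37. The difference of -0.11 ± 0.04 between WT and IDRmut (adjusted p 0.044 by edgeR) was not called without either Control replicate (0.061 and 0.062), without either WT replicate (0.22 and 0.21), with a replicate block (0.072), with only these groups in the fit (0.055), with no filter (0.11) or with DESeq2 (0.14).

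GCLC (chromosome 6, 53497341 to 53616970) had 44.0 and 44.0 CPM in Control, 44.5 and 42.7 in WT, with 41.3 and 45.5 in IDRmut. It was called in no comparison, and the 95% interval of the WT to IDRmut difference ran from -0.12 to 0.12 on the log2 scale. GCLC levels lay below those of GCLM per kilobase of exon in every library.

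Of 23 tested glutathione genes besides these members, 8 rose and 4 fell in WT, and 4 rose and 3 fell in IDRmut. WT against IDRmut gave 7 higher and 1 lower. Both directions were also called over all tested genes, at 17.4% higher and 17.6% lower in WT and 15.6% and 15.9% in IDRmut. Between WT and IDRmut the shares were 14.2% and 12.3%. SLC3A2, the heavy chain of the cystine transporter, rose in both arms (0.78 ± 0.05 and 0.47 ± 0.05). SLC7A11, its light chain, was at 102 ± 3.25 CPM in Control and 101 ± 3.07 in WT and fell to 83.3 ± 1.37 in IDRmut, and was chosen for mention after its values were seen. The export pump ABCC2 rose in WT by 0.60 ± 0.04, and the related pump ABCC3 fell there by 0.38 on the log2 scale. Between WT and IDRmut these pumps differed by 0.77 ± 0.04 and -0.43 ± 0.04, with adjusted p of 9.5e-10 and 2.3e-07 by edgeR. ABCC2 was also lower in IDRmut than in Control, at -0.17 ± 0.05, a call lost without Control replicate 1. CHAC1, which degrades glutathione, rose about equally in WT (1.30 ± 0.14) and IDRmut (1.36 ± 0.14).

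Among 15 tested glutathione S-transferases, 2 rose and 4 fell in WT, and 3 rose and 3 fell in IDRmut. WT against IDRmut gave 1 higher and 3 lower. The shares of all tested genes called in either direction were 35%, 31.6% and 26.5%. GSTP1, a widely expressed transferase, fell from 217 ± 7.45 CPM to 130 ± 2.59 in WT and 119 ± 5.56 in IDRmut, with log2 fold changes of -0.73 ± 0.04 and -0.86 ± 0.04. GSTM4 fell in both arms, by 0.30 and 0.41 on the log2 scale, and 6.53% of its exon bases overlap GSTM2. GSTM genes and the pair GSTT2 and GSTT2B are near copies of each other, so their counts are uncertain. GSTA4 was lower in WT than in IDRmut by -0.61 ± 0.11.

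TXNRD1 encodes cytosolic thioredoxin reductase and had the highest level per kilobase of the 10 genes. It lies on chromosome 12 (104215779 to 104350305) and had 479 and 478 CPM in Control, 498 and 503 in WT, with 418 and 433 in IDRmut. IDRmut was lowest and the groups did not overlap. The fall in IDRmut was -0.17 ± 0.03 (adjusted p 0.0012 by edgeR), and WT stood 0.23 ± 0.03 above IDRmut (adjusted p 6.9e-05 by edgeR). In WT against Control the difference of 0.07 ± 0.03 was not called (adjusted p 0.15 by edgeR), but it was called without IDRmut replicate 2 (0.044), with upper-quartile scaling (0.041) and with only these groups in the fit (0.028).

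SRXN1, which encodes sulfiredoxin and restores overoxidized peroxiredoxins, lies on chromosome 20 (646615 to 653370) and had only 74 to 175 counts per library. Its level was 3.75 and 4.95 CPM in Control, 5.68 and 5.12 in WT, with 5.06 and 3.96 in IDRmut. The WT libraries were the highest, the Control and IDRmut libraries overlapped, and no difference was called, with a 95% interval from -0.04 to 0.64 for WT against Control and from -0.31 to 0.41 for IDRmut. A readthrough gene model on the same strand, AL121758.1, covers 85.0% of the SRXN1 exon bases and itself had at most 2 counts per library, and whether reads shared by both models were dropped was not tested.

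Of 17 other genes of the thioredoxin and peroxiredoxin systems, 3 rose and 4 fell in WT, and 2 rose and 3 fell in IDRmut. WT against IDRmut gave 5 higher and 1 lower. Beside these counts, 35%, 31.6% and 26.5% of all tested genes were called in either direction. TXN, thioredoxin itself, had the order of TXNRD1, with 195 ± 5.98 CPM in WT, 185 ± 4.13 in Control and 170 ± 4.17 in IDRmut. Its WT to IDRmut difference of 0.20 ± 0.04 was lost without WT replicate 2. OSGIN1, an oxidative stress growth inhibitor, rose in WT by 0.82 ± 0.12 and had -0.11 ± 0.14 in IDRmut, and the arms differed by 0.93 ± 0.12 (adjusted p 2.3e-05 by edgeR). SESN2, a sestrin, rose in both arms (0.80 ± 0.12 and 0.66 ± 0.12), and the mitochondrial reductase TXNRD2 fell in both, by 0.37 and 0.44 on the log2 scale.

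NADPH feeds NQO1, TXNRD1 and the aldo-keto reductases. Of 14 tested genes that supply it, 4 rose and 4 fell in WT, and 2 rose and 5 fell in IDRmut. WT against IDRmut gave 5 higher and 5 lower. All tested genes were called both ways too, with 35%, 31.6% and 26.5% called in these comparisons. ME1, malic enzyme, was highest in IDRmut, with 69 and 65 counts there, 32 and 49 in WT and 14 and 16 in Control. It rose by 2.01 ± 0.25 on the log2 scale in IDRmut and was lower in WT than in IDRmut (-1.09 ± 0.20). ME1 was also called higher in WT than in Control, a call lost with DESeq2, without Control replicate 1 and without either WT replicate. PGD, a dehydrogenase of the pentose phosphate pathway, fell by 0.26 on the log2 scale in IDRmut. PGD was called lower in WT against Control too, a call lost without Control replicate 2 and without WT replicate 2.

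**Figure D2:**
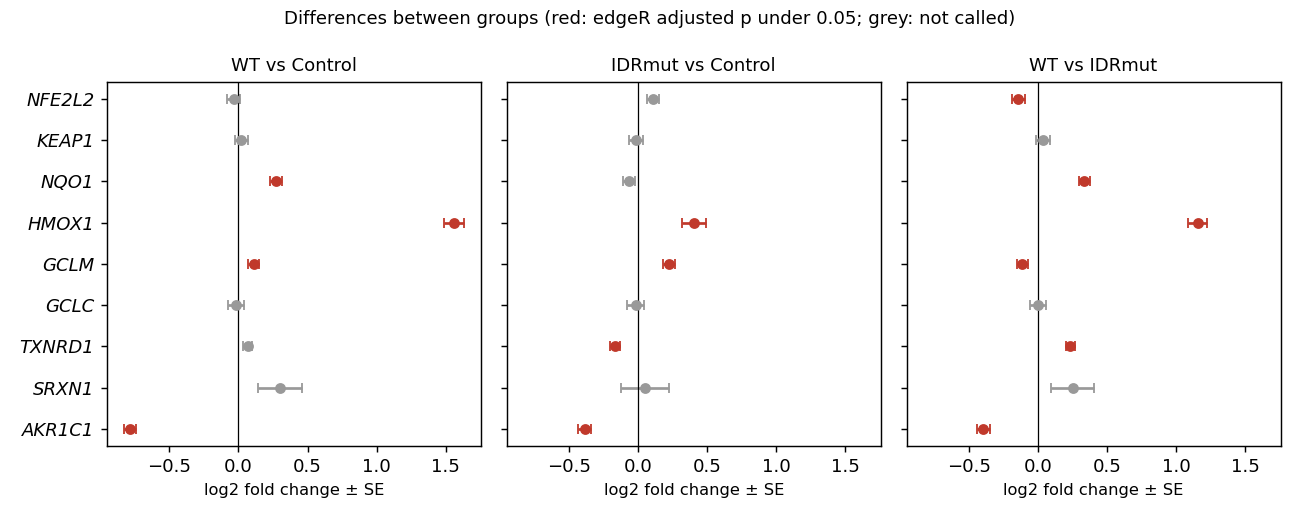
Log2 fold changes ± SE of the 9 tested genes in the 3 comparisons (red, edgeR adjusted p under 0.05; grey, not called). HMOX1 lies farthest to the right and AKR1C1 farthest to the left in every panel, and KEAP1, GCLC and SRXN1 are grey in all of them.

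AKR1C1 encodes an NADPH-dependent reductase of ketosteroids and carbonyls, and lies on chromosome 10 (4963253 to 4983283). It had 103 and 104 CPM in Control, 59.7 and 60.0 in WT, with 79.8 and 77.8 in IDRmut. The groups were fully separated in the order opposite to that of HMOX1. AKR1C1 fell by 0.78 in WT and by 0.39 in IDRmut on the log2 scale (adjusted p 4.1e-10 and 3.2e-06 by edgeR), and the arms differed by -0.40 ± 0.05 (adjusted p 4.7e-06 by edgeR).

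Its neighbours on chromosome 10 also fell in WT. AKR1C3, which reduces steroids and prostaglandins, had 231 and 232 CPM in Control, 127 and 127 in WT, with 212 and 211 in IDRmut. The fall was -0.87 ± 0.04 in WT and -0.13 ± 0.04 in IDRmut, and the second was not called without either Control replicate or with upper-quartile scaling. AKR1C2 fell by 0.54 on the log2 scale in WT and had -0.12 ± 0.05 in IDRmut (adjusted p 0.079 by edgeR). Without IDRmut replicate 1 that second difference was called. WT stood below IDRmut by -0.42 ± 0.05 for AKR1C2 and -0.74 ± 0.04 for AKR1C3.

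These genes are close copies. In GENCODE transcripts, 16.5% of the distinct 100-base windows of AKR1C1 also occur in AKR1C2, and 0.215% occur in AKR1C3, so counts of AKR1C1 and AKR1C2 can be split between them. The sum of AKR1C1 and AKR1C2 was 198 and 205 CPM in Control, 125 and 129 in WT, with 171 and 168 in IDRmut, which gives ratios to Control of 0.631 in WT and 0.841 in IDRmut. The sum therefore kept the order of AKR1C1.

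AKR1B10, a reductase of retinaldehyde and other aldehydes that is often abundant in squamous lung cancer, was nearly silent. It lies on chromosome 7 (134527592 to 134541408) and had 2 and 0 counts in the Control libraries, 9 and 20 in those of WT, and 4 and 4 in those of IDRmut. Its summed level was 0.0522 CPM in Control (95% counting interval 0.00632 to 0.189), 0.531 in WT (0.356 to 0.763) and 0.189 in IDRmut (0.0815 to 0.372). The WT to Control ratio was 10.2 with a 95% counting interval of 2.57 to 88.0, and the IDRmut to Control ratio 3.62 with an interval of 0.722 to 35.0. The WT to IDRmut ratio was 2.81 (1.25 to 7.12). These exact Poisson and binomial intervals cover counting error only, since PCR copies were not told apart by molecular identifiers. With no filter on low counts, edgeR gave AKR1B10 adjusted p of 1.5e-04 for WT against Control, 0.30 for IDRmut against Control and 0.049 between WT and IDRmut. The WT to Control call was lost without Control replicate 2 (0.058), and the WT to IDRmut call was lost in every fit without 1 library in which AKR1B10 passed the filter.

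Across the aldo-keto reductase superfamily, 11 of 17 genes were tested; 0 rose and 7 fell in WT, 2 rose and 5 fell in IDRmut, and WT against IDRmut gave 0 higher and 5 lower. For comparison, 17.6%, 15.9% and 12.3% of all tested genes were called lower in these comparisons. The median log2 fold change of the 11 genes was -0.21 in WT and -0.13 in IDRmut against Control, and -0.35 between WT and IDRmut. Besides the AKR1C genes, AKR1B1, the aldose reductase, fell in both arms, by 0.21 and 0.27 on the log2 scale. AKR1A1, an aldehyde reductase, fell in WT by 0.22, a call lost without Control replicate 2. KCNAB2, a beta subunit of potassium channels with the same fold, rose in IDRmut by 0.32 ± 0.09, a call lost without either Control replicate and with DESeq2. AKR7L, annotated as a polymorphic pseudogene, was the other gene called higher in IDRmut. That call was lost without either Control replicate, without IDRmut replicate 1 and with DESeq2. With only WT and Control in the fit, 9 superfamily genes passed the filter, and 7 were called lower. The number of superfamily genes called lower in IDRmut was 3 with upper-quartile scaling, with DESeq2 and without IDRmut replicate 2, and 2 without either Control replicate. With no filter on low counts, AKR1B10 was the 1 superfamily gene called higher in WT against Control. AKR1B10 was also called higher there in some fits that left out a library, and AKR7L was called higher without WT replicate 1. With all libraries, the largest log2 fold change of the superfamily in WT against Control, 1.40, was not called. AKR1B15 had no count in Control or IDRmut and 4 in WT.

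**Figure D3:**
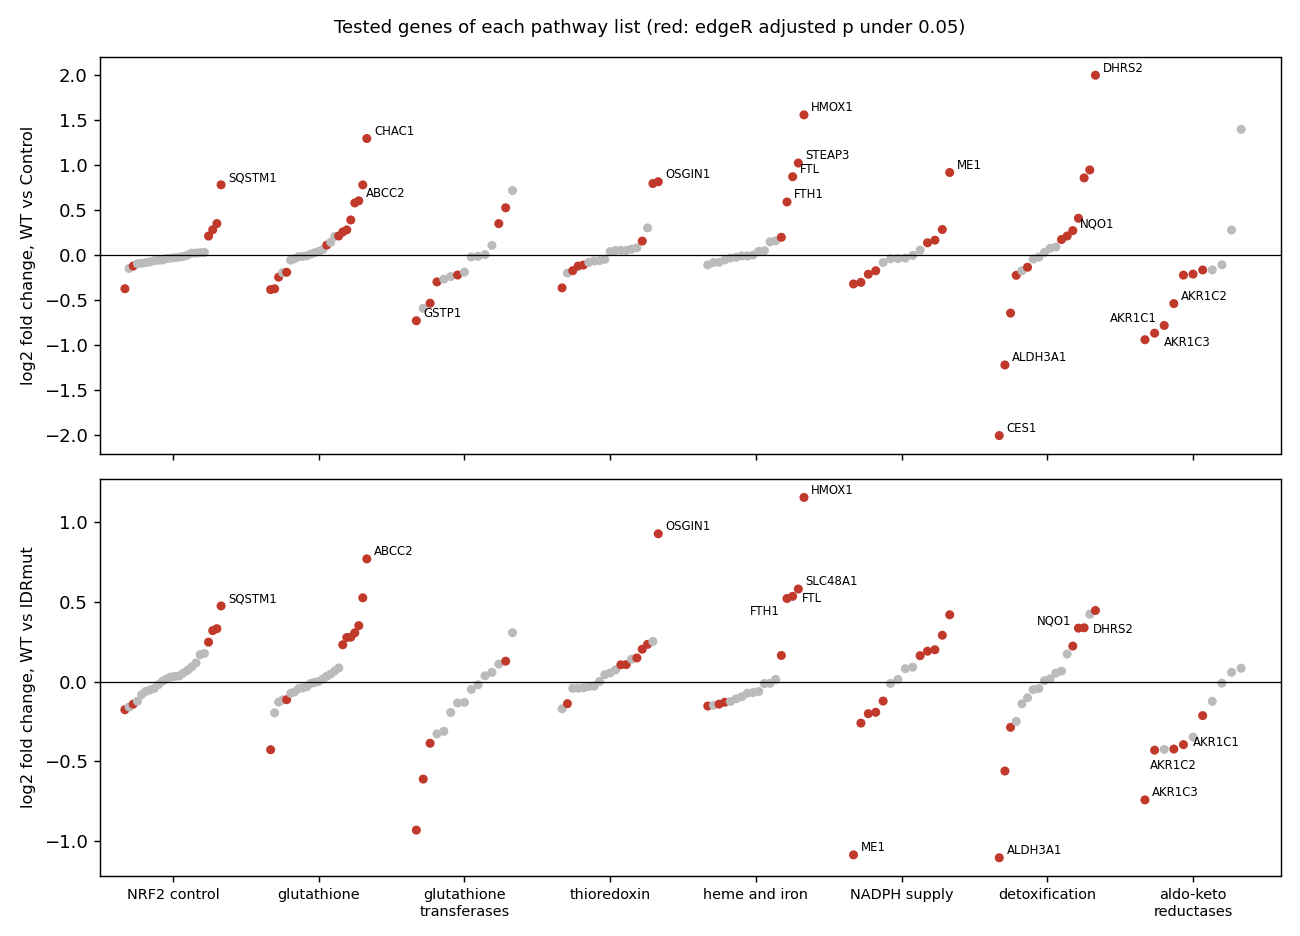
Log2 fold changes of the tested genes of 8 pathway lists, ordered by value within each list, for WT against Control (upper panel) and WT against IDRmut (lower panel); red points have an edgeR adjusted p under 0.05. HMOX1 tops its list in both panels, and no aldo-keto reductase is red above 0.

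The squamous and basal markers were read beside the AKR1C genes. Of 12 tested markers, 4 rose and 7 fell in WT, and 6 rose and 2 fell in IDRmut. WT against IDRmut gave 1 higher and 11 lower. Across all tested genes, 35%, 31.6% and 26.5% were called in either direction in these comparisons. Their summed level over 17 markers was 2488 and 2511 CPM in Control, 1478 and 1448 in WT, with 2240 and 2067 in IDRmut. The sum had the same order as AKR1C1, but in Control it was mostly KRT14. The median log2 fold change of the 12 tested markers was -0.42 in WT and 0.23 in IDRmut against Control. Most called markers thus fell in WT, as AKR1C1 did, and rose in IDRmut, where AKR1C1 fell. The part of these markers in the AKR1C result was not tested. Fibroblast markers summed to between 705 and 986 CPM and were mostly COL1A2, with DCN, FAP and LUM at 10 counts or fewer in each library. Endothelial markers summed to 220 and 226 CPM in Control, 51.2 and 53.2 in WT, with 103 and 99.6 in IDRmut; CLDN5, EMCN, ERG, PECAM1 and TIE1 were at 10 counts or fewer. The part of these lists in the results was not tested.

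Several counts of these short lists rested on single libraries, and the test used mattered too. With DESeq2, NRF2 control genes called lower in IDRmut went from 5 to 2. With the members included, the counts that moved by over 1.5 times and by at least 3 genes were as follows, and each list also had smaller shifts past 1.5 times. NRF2 control genes called higher in WT went from 4 to 1 without Control replicate 1, and those called lower in IDRmut from 5 to 2 without Control replicate 2. Heme and iron genes called higher in IDRmut went from 9 to 5 without Control replicate 1. Detoxification genes called higher in WT went from 7 to 4 without WT replicate 2. Glutathione genes called lower in IDRmut went from 3 to 6 without IDRmut replicate 1. Thioredoxin genes called lower in WT went from 4 to 1 without WT replicate 1, and those called higher in WT than in IDRmut from 6 to 2 without WT replicate 2. NADPH genes called higher in WT went from 4 to 1 without Control replicate 1, without WT replicate 1 or without WT replicate 2. The aldo-keto reductases called lower in IDRmut are given above.

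Levels of different members were compared with each other only after division by exon length, taken from the union of GENCODE 29 exons, which counts rarely used exons too. Marker levels and sums above are CPM without that division. In Control, CPM per kilobase of exon ran from 71.3 for TXNRD1 and 56.8 for NQO1 through 25.3 for GCLM, 20.6 for KEAP1, 12.5 for NFE2L2 and 11.8 for AKR1C1 to 5.34 for HMOX1, 5.09 for GCLC, 1.61 for SRXN1 and 0.0291 for AKR1B10. No neighbouring pair in that order overlapped between the Control libraries, and the narrowest gap was that of HMOX1 (5.21 and 5.48) and GCLC (5.09 and 5.09). In WT, HMOX1 reached 15.8 CPM per kilobase, above NFE2L2 at 12.2 and AKR1C1 at 6.83. In IDRmut, HMOX1 stood at 7.07, below AKR1C1 at 8.99.

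Genes with the most similar pattern were sought for the 3 tested members whose group means differed most, HMOX1, AKR1C1 and NQO1. Likeness was the Euclidean distance between mean-centred log2 CPM over the 6 libraries, among 13979 other genes whose mean CPM reached 1. Nearest to HMOX1 were NMRAL2P (0.22), BHLHE41 (0.24) and NXN (0.32). Nearest to AKR1C1 were ZNF862 (0.071), KLHL13 (0.075) and TNC (0.085), and nearest to NQO1 were CCDC136 (0.052), PLEKHG2 (0.061) and ECE1 (0.069).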

How the data were processed

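The authors deposited raw counts per gene for 6 libraries of poly-A RNA. The submitters' processing notes name GRCh38, featureCounts 2.0.1, HISAT2 2.2.1 and SAMtools 1.14. Annotation release, strand setting and multi-mapping rule: not given in the sources used here. Genes were kept by filterByExpr (minimum count 10, minimum total 15), which left 16591 of 61487. Counts were scaled by TMM and fitted with edgeR 4.0.16 in R 4.3.3 as group means of all 6 libraries, with 3 residual and 13.5 prior degrees of freedom, and tested by quasi-likelihood with Benjamini-Hochberg adjustment over all tested genes. All groups shared the estimate of spread, although the IDRmut libraries agreed less well. Chi-square per gene between the libraries of a group, against counts in proportion to library totals, was 3.65 in IDRmut, 1.66 in Control and 1.55 in WT. Errors may thus be too small for IDRmut contrasts and too large for WT against Control. Alternatives were RLE and upper-quartile scaling, DESeq2 1.42.0, no filter, fits of 2 groups, a replicate block and leaving out each library. The procedure was also run on simulated counts with changes in WT only. Those changes were fewer than the calls here and larger than most member differences, so the run does not bear on small differences.

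Loci and exon overlaps came from GENCODE release 29 (GRCh38), which may not be the authors' annotation. Named are the 10 members, TNK2, any gene of the NRF2 control and aldo-keto reductase lists, the 4 other genes with the smallest adjusted p of each other pathway list, and the 3 nearest patterns of 3 members; SLC7A11, HMOX2 and the marker genes stand outside that rule. 1 gene that the rule names is not reported here. Members and lists were chosen with earlier results of these data known.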

Additional observations from a re-analysis of the deposited data

How the results depend on the processing

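Of 14 member differences called by edgeR's quasi-likelihood test, 11 kept their call and direction under all 12 alternatives, among them every call of HMOX1, AKR1C1, NQO1 and TXNRD1; the exceptions were GCLM in WT against Control and in WT against IDRmut, and NFE2L2 in WT against IDRmut. No called member difference changed sign. DESeq2 called 3649 genes in WT against Control, 3290 in IDRmut against Control and 2534 between WT and IDRmut, fewer than the 5807, 5237 and 4396 of edgeR. Leaving out 1 library gave between 3974 and 7028, between 3451 (without Control replicate 1) and 5522, and between 2590 (without WT replicate 2) and 4761 calls; where 1 library of a group remained, it was assumed to vary like the other groups. Replicate numbers showed no shared effect on expression (correlations of replicate differences of -0.021, -0.024 and -0.029 across genes). The labels do not say whether libraries of the same number were handled together. With a replicate block the calls numbered 5440, 4836 and 3966, and only the GCLM calls of WT against Control and WT against IDRmut were lost among the members. Low counts limit what can be said of AKR1B10 and SRXN1.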
